A study of Mus musculus with 6 samples.

Results

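The miR-200 family is a group of small regulatory RNAs of epithelial cells. It was followed here in skeletal muscle of mice with heart failure after transverse aortic constriction (TAC) and of sham-operated mice (Sham). Rows of the miRNA count table were taken as members where the name began with miR-200a, miR-200b, miR-200c, miR-141 or miR-429. This gave 3 members of 392 listed miRNAs, the guide strands mmu-miR-200a-3p, mmu-miR-200b-3p and mmu-miR-429-3p, written without the mouse prefix mmu from here on. The other family names and the passenger strands were not analysed here. Every listed miRNA reached at least 10 unique molecular identifiers (UMIs) in at least 1 library, so a miRNA below that count in every library carries no value.

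There were 3 TAC and 3 Sham libraries. The mice of both groups were C57BL6 males, 16 weeks of age and fed normal chow. TAC narrows the aortic arch, so that the left ventricle works against a raised pressure, thickens and later fails. The sample records give 8 weeks of treatment for both groups, while the protocol puts the harvest between 8 and 10 weeks. The labels do not name the muscle, and do not say whether a library is 1 mouse or a pool. Where libraries of a group came from the same animal or the same pool, the p-values measure technical spread only.

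The miR-200 family is known for holding epithelial cells in their epithelial state. Its members bind transcripts of the repressors Zeb1 and Zeb2, which silence E-cadherin, and these repressors in turn silence the miRNA genes, so that cells settle at one end or the other of this loop. The family is abundant in the epithelia of kidney, lung, gut and skin and is scarce in muscle fibres and fibroblasts. A miRNA finds its targets mainly through its seed, bases 2 to 8 from the 5′ end, and members of this family fall into 2 seed groups.

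The mature sequences are shown because the seeds, in capitals, set these groups apart (RefSeq, GRCm38.p6, 5′ to 3′).
miR-200a-3p: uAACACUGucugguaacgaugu
miR-200b-3p: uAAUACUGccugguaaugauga
miR-429-3p: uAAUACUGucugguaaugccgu
The seed of miR-200b-3p and miR-429-3p is the same, and among RefSeq mouse miRNAs 3 mature sequences carry it, the last being miR-200c-3p. The seed of miR-200a-3p is shared with miR-141-3p. Counted from 1 at the 5′ end, miR-200a-3p differs from miR-200b-3p by C4U, U9C, C17U and U22A, and from miR-429-3p by C4U, C17U, A19C and U20C. The change C4U is the 1 difference within the seed. The same-seed pair, miR-200b-3p and miR-429-3p, differs by C9U, A19C, U20C and A22U. Each pair of members therefore differs at 4 of 22 positions. Over the first 20 bases, miR-200a-3p differs from miR-141-3p at 1 position and miR-200b-3p from miR-200c-3p at 1 position. Reads of these close relatives could be assigned to a listed member if the counting allowed a mismatch, and the counting rule is not given in the sources used here.

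All 3 members come from 1 stretch of 1846 bases on the minus strand of chromosome 4 (GRCm38, 156053905 to 156055750), in the order miR-200b, miR-200a, miR-429 along that strand. The hairpins are given because they show which arm was counted, with the mature strand in capitals.
Mir200b hairpin, chr4:156055681-156055750: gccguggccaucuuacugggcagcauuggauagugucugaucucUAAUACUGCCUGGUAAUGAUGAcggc
Mir200a hairpin, chr4:156054896-156054985: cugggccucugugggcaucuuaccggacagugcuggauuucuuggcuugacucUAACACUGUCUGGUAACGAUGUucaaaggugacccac
Mir429 hairpin, chr4:156053905-156053987: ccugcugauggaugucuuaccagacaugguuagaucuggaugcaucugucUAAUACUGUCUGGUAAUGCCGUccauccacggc
The counted strand was the 3′ arm in each hairpin. In the GENCODE M21 annotation the cluster lies within Ttll10, a protein-coding gene of the tubulin ligase-like family, and within the noncoding gene Gm13648, both on the same strand. The hairpin of Mir429 falls in an exon of Gm13648, and the other 2 fall in its intron. All 3 hairpins lie in an intron of Ttll10. None of the 1832 listed sequences that map to the genome without annotation starts in this stretch (0 sequences).

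Depth ranged from 1179365 miRNA UMIs in Sham 3 to 3440232 in Sham 1. Sham 3 was the shallowest library and differed most from the rest of its group, with a chi-square per degree of freedom of 330 against Sham 1 and 408 against Sham 2, where Sham 1 and Sham 2 gave 53.8. TAC 3 likewise stood apart from TAC 1 (216) and TAC 2 (228), where TAC 1 and TAC 2 gave 63.8. The muscle identity of the samples was clear in the miRNAs. The muscle miRNA miR-1a-3p averaged 508978 ± 59874 CPM in TAC and 420855 ± 69157 CPM in Sham, and miR-133a-3p averaged 154206 ± 27299 CPM in TAC and 99456 ± 20839 CPM in Sham (SD, n = 3 each). Of 4 muscle miRNAs, miR-206-3p fell (edgeR adjusted p = 0.0342) and 3 did not pass. The call of miR-206-3p was lost on leaving out any library except Sham 2 (adjusted p between 0.0651 and 0.109), and its log2 fold change of -2.37 was -1.51 when Sham 3 was left out. With the replicate number as a block 3 of the 4 passed, miR-206-3p, miR-133a-3p (0.00926) and miR-133b-3p (0.00684). CPM is UMIs per 1000000 tested miRNA UMIs after scaling by trimmed means of M-values (TMM).

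The family was scarce in every library and scarcer in TAC. The 3 members together had 18, 11 and 3 UMIs in TAC 1, 2 and 3, and 236, 156 and 27 UMIs in Sham 1, 2 and 3. Sham 3 thus had more family UMIs than any TAC library although it was sequenced least. Over the groups this makes 32 UMIs of 7314448 miRNA UMIs in TAC and 419 of 6980093 in Sham. Per 1000000 scaled UMIs the family summed to 7.02, 5.38 and 1.49 CPM in TAC, against 65.6, 62.2 and 18.98 CPM in Sham. The groups did not overlap, and the library numbered 3 was the lowest of each group, with TAC 3 at 24.03% of the mean of the other TAC libraries and Sham 3 at 29.7% of the mean of the other Sham libraries. The mean level was 4.63 ± 2.84 CPM in TAC and 48.9 ± 25.99 CPM in Sham (SD, n = 3 each), which is 10.6 times higher in Sham, 13.8 times higher without Sham 3 and 7.89 times higher without TAC 3. The pooled counts scale to a Sham over TAC ratio of 11.5 (95% exact counting bounds 8.03 and 17.1). Such intervals cover counting error only. No test was made on the sum, since its members were chosen together. In tissue RNA, fewer cells of a type and less RNA per cell cannot be told apart. The part of RNA from other organs, whose mRNA fragments are given below, was not tested.

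**Figure D1:**
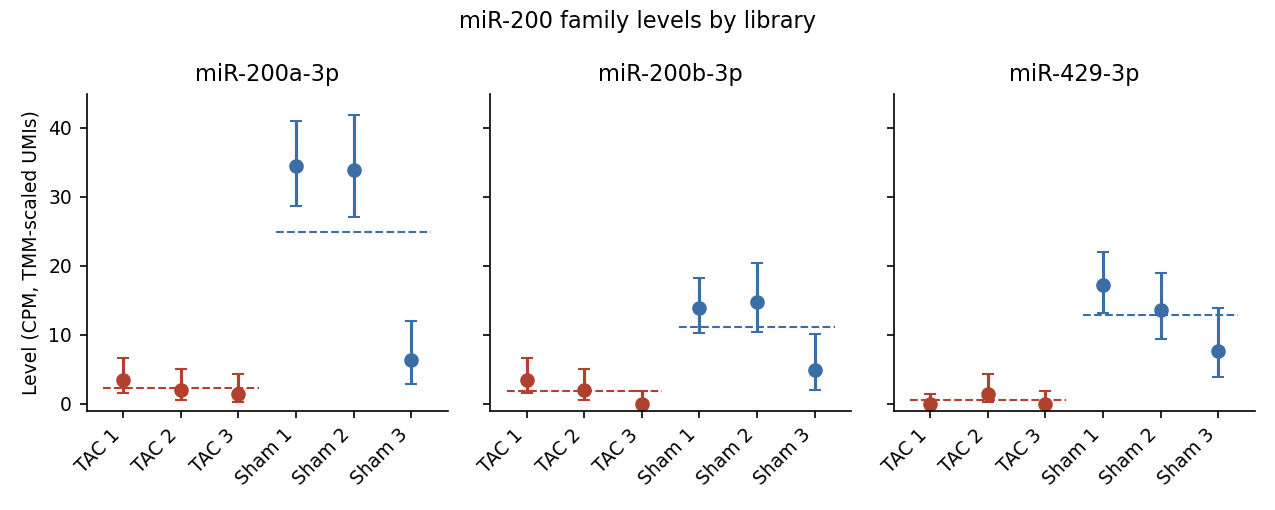
Level of each member (TMM-scaled CPM, vertical axis) in each TAC library (red) and Sham library (blue). Points are libraries, bars are 95% exact Poisson intervals of the count, and dashed lines are group means. All TAC points lie at or below 3.51 CPM, and Sham 3 lies lowest among the Sham libraries for each member.

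Each member was tested in a fit over all miRNAs with edgeR's quasi-likelihood test and Benjamini-Hochberg adjustment, at a threshold of 0.05. Of 322 tested miRNAs 51 fell in TAC, a background of 15.8%, 20 rose (6.21%) and 71 changed in either direction (22%). Scaled by library size only, 68 fell and 10 rose. With the replicate number as a block 111 miRNAs changed, and 129 changed with both libraries numbered 3 left out. Leaving out 1 library gave 17 calls (Sham 1), 29 (Sham 2), 73 (Sham 3), 32 (TAC 1), 24 (TAC 2) or 62 (TAC 3). All 3 members passed the filter on low counts and all 3 fell. No TAC library held more than 9 UMIs of any member. Each was thus listed, and passed the filter, through its Sham counts. The direction of the 3 calls is therefore not independent of how the members came to be tested.

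The most abundant member, miR-200a-3p, carries the seed shared with miR-141. It had 9, 4 and 3 UMIs in TAC 1, 2 and 3, against 124, 85 and 9 in Sham 1, 2 and 3. On the CPM scale it had 3.51, 1.96 and 1.49 in TAC and 34.4, 33.9 and 6.33 in Sham. The groups did not overlap, with Sham 1 and Sham 2 high and Sham 3 near the TAC libraries. The counting interval of Sham 3, from 2.89 to 12.01 CPM, overlapped that of TAC 1, from 1.61 to 6.67 CPM. Its mean was 2.32 ± 1.06 CPM in TAC and 24.9 ± 16.1 CPM in Sham (SD, n = 3 each). The log2 fold change was -3.40 (SE 0.69, edgeR adjusted p = 0.0155). The call was lost without Sham 1 (adjusted p = 0.0525), Sham 2 (0.0507) or TAC 2 (0.0666). Leaving out Sham 3 gave -3.76 (adjusted p = 0.00238), and leaving out TAC 3 gave -3.16 (0.0375).

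The second member, miR-200b-3p, lies first in the cluster. It had 9, 4 and 0 UMIs in TAC, against 50, 37 and 7 UMIs in Sham. For the count of 0 in TAC 3 the exact 95% interval reaches 1.83 CPM. Its levels were 3.51, 1.96 and 0 CPM in TAC and 13.9, 14.8 and 4.92 CPM in Sham. The groups did not overlap, but the gap between TAC 1 and Sham 3 was narrow and lay within their counting intervals. Means were 1.82 ± 1.76 CPM in TAC and 11.2 ± 5.45 CPM in Sham (SD, n = 3 each). The log2 fold change of -2.56 (SE 0.75) was the smallest of the 3, and its edgeR adjusted p of 0.0454 was close to the threshold. The call was lost when any 1 library other than Sham 3 was left out, with adjusted p-values from 0.0523 (without TAC 3) to 0.138 (without Sham 1).

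The third member, miR-429-3p, has the seed of miR-200b-3p and lies last in the cluster. It had 0, 3 and 0 UMIs in TAC, against 62, 34 and 11 UMIs in Sham. Its levels were thus 0, 1.47 and 0 CPM in TAC and 17.2, 13.6 and 7.73 CPM in Sham. This was the widest separation in the family, with a mean of 0.489 ± 0.847 CPM in TAC and 12.8 ± 4.79 CPM in Sham (SD, n = 3 each). The 3 UMIs over the TAC group and 107 over the Sham group scale to a Sham over TAC ratio of 31.4 (95% exact counting bounds 10.4 and 154). The log2 fold change was -4.70 (SE 0.82, edgeR adjusted p = 0.00807). It kept its call in all 17 alternatives, with adjusted p-values from 6.61e-05 to 0.0464. Among these, library sizes over all RNA classes nearly repeat the main fit by construction, since TMM factors were computed anew on them. Without TAC 2, which holds every TAC UMI of this miRNA, the fitted log2 fold change was -7.98 and is no bound.

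**Figure D2:**
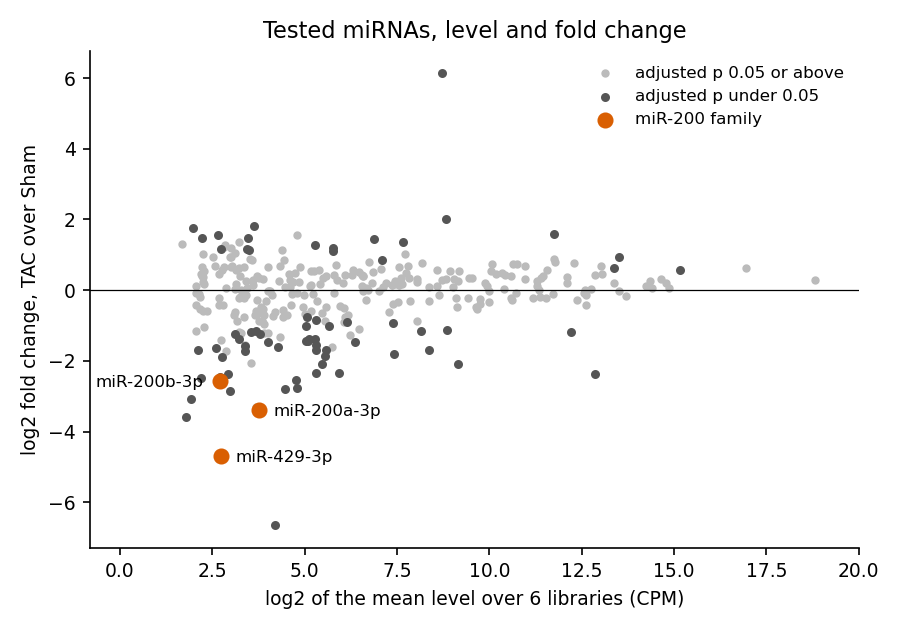
Log2 fold change of TAC over Sham (vertical axis) against the log2 mean CPM over 6 libraries (horizontal axis) for the 322 tested miRNAs. Dark points have an adjusted p under 0.05 and the family is in orange, at the low end of the level axis and at log2 fold changes of -2.56, -3.40 and -4.70.

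Among the 322 tested miRNAs the median log2 fold change was 0.04. Ordered from the lowest log2 fold change, miR-429-3p stood in place 2, miR-200a-3p in place 4 and miR-200b-3p in place 11. Only the slow-fibre miRNA miR-208b-3p lay below miR-429-3p (-6.65). By level the members were among the lesser miRNAs, at places 224, 289 and 285 of 322 for miR-200a-3p, miR-200b-3p and miR-429-3p. In 72 tested miRNAs, 22.4%, every TAC library lay below every Sham library, and the 3 members were among these.

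The make-up of the family was similar in the deeper Sham libraries. In Sham 1 and Sham 2 miR-200a-3p made up 52.5% and 54.5% of family UMIs, miR-200b-3p 21.2% and 23.7%, and miR-429-3p 26.3% and 21.8%. In Sham 3 the largest share was that of miR-429-3p, 40.7% of 27 UMIs, with a 95% exact binomial interval from 22.4% to 61.2%, which covers the share in Sham 1 and stops just short of that in Sham 2. Over the group, miR-429-3p held 9.38% of 32 family UMIs in TAC (95% exact binomial interval 1.98% to 25.02%) and 25.5% of 419 in Sham (21.4% to 29.996%). The intervals overlap, as do those of miR-200b-3p, which held 40.6% in TAC (23.7% to 59.4%) and 22.4% in Sham (18.5% to 26.7%). The share of miR-200a-3p was 50% in TAC (31.9% to 68.1%) and 52.03% in Sham (47.1% to 56.9%). A difference in make-up between the groups was not tested, and with 3 to 18 family UMIs in a TAC library little could be seen of one. Grouped by seed, the AACACUG member had 16 UMIs in TAC and 218 in Sham, and the AAUACUG pair had 16 UMIs in TAC and 201 in Sham. The scaled Sham over TAC ratios of the seed groups were close, 11.98 for AACACUG (95% counting interval 7.21 to 21.3) and 11.05 for AAUACUG (6.64 to 19.7).

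**Figure D3:**
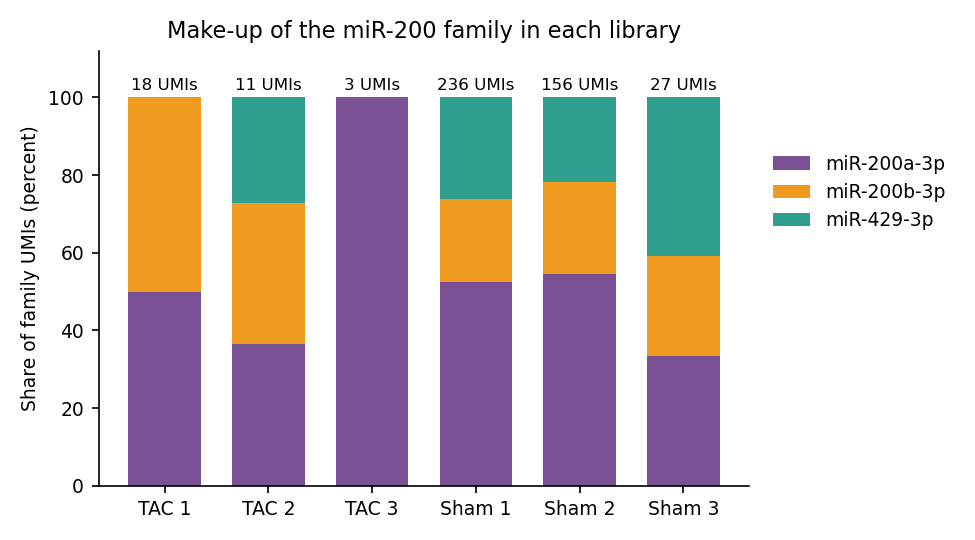
Share of family UMIs (percent, vertical axis) held by each member in each library, with the number of family UMIs above the bar. Sham 1 and Sham 2 look alike, while the TAC bars rest on 18, 11 and 3 UMIs.

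Markers of the epithelia that express this family were looked for among the mRNA fragments of the same libraries. Of 22 kidney epithelium genes, 7 had values, and they summed to 3, 1 and 2 UMIs in TAC 1, 2 and 3, against 135, 59 and 33 UMIs in Sham 1, 2 and 3. For a gene with several listed transcripts the highest transcript was counted, since transcripts of 1 gene can share UMIs. Per 1000000 miRNA UMIs the kidney genes lay between 0.466 and 1.04 in TAC and between 24.99 and 39.2 in Sham, so every Sham library was far above every TAC library. The kidney signal therefore had the direction of the family. On this scale Sham 3, with 27.98 per 1000000, lay between Sham 2 and Sham 1. As a share of mRNA UMIs, Sham 3 was the lowest Sham library in it, at 0.489%, against 0.644% in Sham 1 and 0.616% in Sham 2. Family UMIs per 100 kidney UMIs were 600, 1100 and 150 in TAC 1, 2 and 3, resting on 3, 1 and 2 kidney UMIs, and 175, 264 and 81.8 in Sham 1, 2 and 3.

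The kidney genes with values include markers of distinct tubule segments. Umod, the uromodulin of the thick ascending limb, had 0 UMIs in each TAC library and 23, 9 and 9 UMIs in Sham 1, 2 and 3. Lrp2, the endocytic receptor megalin of the proximal tubule, had 1, 0 and 0 UMIs in TAC and 38, 11 and 8 in Sham. Its partner Cubn had 0 UMIs in TAC and 14 in Sham. The proximal phosphate transporter Slc34a1 also stood at 0 UMIs in TAC, against 21 in Sham. Egf had 1 UMI over TAC and 33 over Sham, the androgen-regulated kidney gene Kap 1 over TAC and 21 over Sham, and the secreted peroxidase Gpx3 3 over TAC and 40 over Sham. In unscaled UMIs each of the 7 genes was higher over the Sham group, and 3 of them stood at 0 in every TAC library. No TAC library held more than 1 UMI of any of them, so they have values through their Sham counts. Their shared direction is therefore not independent of how they came to be listed. All listed mRNA transcripts together had 11441, 5646 and 9348 UMIs in TAC 1, 2 and 3, and 20976, 9577 and 6746 in Sham 1, 2 and 3. How many of the listed transcripts were higher over the Sham group was not counted. For comparison, the 10 muscle genes with values summed to 1232 UMIs in TAC and 1464 in Sham. Of all 98 listed mRNA transcripts, 4 stood at 0 in every TAC library. Of 10 genes of other epithelia, among them keratins, Epcam and Cdh1, and of 8 targets and partners of the family, among them Zeb1, Zeb2 and Vim, none was analysed here (0 genes with values). The part of kidney or other epithelial RNA in the family's difference between the groups was not tested.

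Liver RNA ran the other way over the groups, with 2 of 7 listed liver genes having values. Alb, serum albumin, had 41, 83 and 5 UMIs in TAC and 0 UMIs in each Sham library, and Apob had 14, 33 and 1 UMIs in TAC and 4, 3 and 1 in Sham. Alb thus has values only through its TAC counts, and TAC 3 did not lie above the Sham libraries in Apob. The hepatocyte miRNA miR-122-5p had 424, 1989 and 72.5 CPM in TAC and 14.4, 16.4 and 2.81 CPM in Sham. It rose in TAC (log2 fold change 6.13, SE 1.27, edgeR adjusted p = 0.0157). Leaving out TAC 2, its highest library, gave 4.46 (0.038). Leaving out Sham 1 (0.055) or Sham 2 (0.0567) ended the call. Muscle mRNA fragments were present in all libraries, with 10 of 12 listed muscle genes having values. They ranged from 129 to 217 per 1000000 miRNA UMIs in TAC and from 181 to 326 in Sham, and the groups overlapped.

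**Figure D4:**
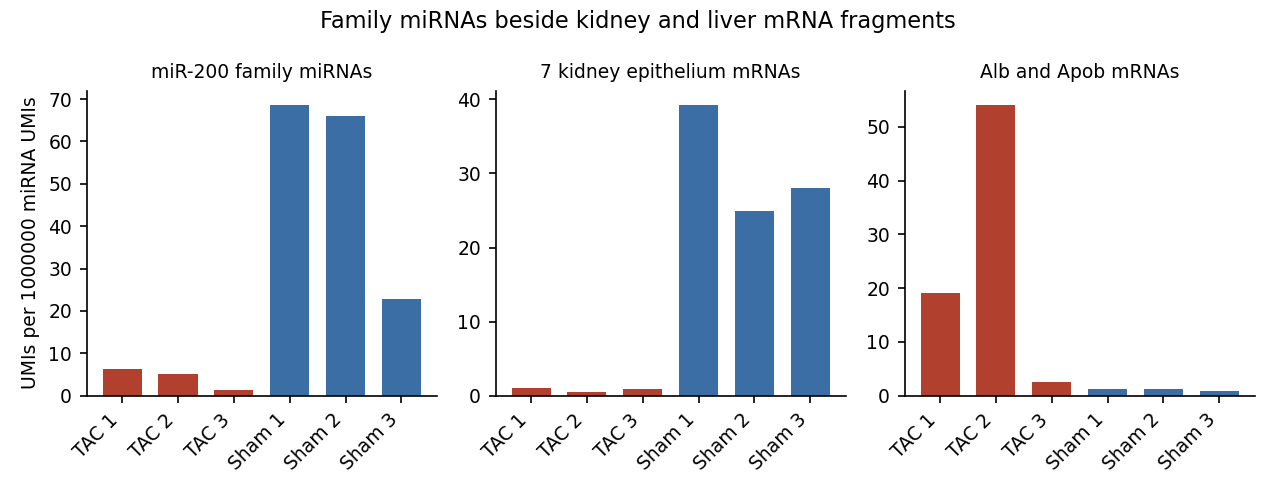
UMIs per 1000000 miRNA UMIs (vertical axis, one scale per panel) of the 3 family miRNAs, of 7 kidney epithelium mRNAs and of the liver mRNAs Alb and Apob, in TAC libraries (red) and Sham libraries (blue). The kidney panel lies between 24.99 and 39.2 in Sham and at 1.04 or below in TAC, and the liver panel is highest in TAC 2.

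Other miRNAs of epithelia and kidney showed mixed directions. Of 16 such miRNAs outside it, 13 had values and 10 were tested. Of these, miR-30a-5p rose, miR-31-5p fell and 8 did not pass, with a median log2 fold change of 0.31 over the 10 beside 0.04 over all tested miRNAs. The fall of miR-31-5p, a miRNA of epithelia and of muscle satellite cells, was to 2.003 ± 0.848 CPM in TAC, against 6.598 ± 1.24 CPM in Sham libraries. Its log2 fold change was -1.68 (SE 0.40, edgeR adjusted p = 0.025). This call was lost with DESeq2 (0.0619) and without any 1 library other than TAC 3 (adjusted p from 0.0574 to 0.11). The abundant miR-30a-5p averaged 15190 ± 3778 CPM in TAC and 7926 ± 1691 CPM in Sham, with a log2 fold change of 0.94 (SE 0.25, edgeR adjusted p = 0.0345). Its call was lost with library sizes only (0.0763) and on leaving out any of Sham 1, Sham 2, TAC 1 and TAC 2 (adjusted p between 0.0683 and 0.114).

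The liver, gut and kidney miRNAs miR-192-5p and miR-194-5p, which share a gene cluster, did not pass. The level of miR-192-5p was 229 ± 92.9 CPM in TAC and 144 ± 37.5 CPM in Sham (edgeR adjusted p = 0.223), and that of miR-194-5p was 70.9 ± 34.2 CPM in TAC and 60.5 ± 29.9 CPM in Sham (adjusted p = 0.784). The skin miRNA miR-203-3p averaged 162 ± 47.2 CPM in TAC and 107 ± 23.6 CPM in Sham (adjusted p = 0.206). The level of miR-182-5p was 5.66 ± 1.46 CPM in TAC and 13.7 ± 9.68 CPM in Sham (adjusted p = 0.178). The sensory and epithelial miRNA miR-183-5p had 10, 5 and 13 UMIs in TAC and 15, 15 and 68 UMIs in Sham 1, 2 and 3 (adjusted p = 0.193). Sham 3 was thus the highest library for miR-183-5p and the lowest Sham library for each miR-200 member.

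Among 9 miRNAs of the network of epithelial to mesenchymal transition, 8 were tested. Of these, 1 rose (miR-30a-5p), 1 fell (miR-10b-5p) and 6 did not pass. The fall of miR-10b-5p, induced by TWIST1 in human breast tumour cells, was to 2915 ± 444 CPM in TAC, against 6552 ± 1508 CPM in Sham. Its log2 fold change was -1.17 (SE 0.23, edgeR adjusted p = 0.014). It was lost on leaving out any of Sham 1, TAC 1 and TAC 2 (adjusted p between 0.0631 and 0.0726). The p53-induced miR-34a-5p, which targets SNAI1 in human cells, averaged 218 ± 77.1 CPM in TAC and 171 ± 71.7 CPM in Sham (adjusted p = 0.576). The fibrosis miRNA miR-21a-5p averaged 10301 ± 1153 CPM in TAC and 6451 ± 2630 CPM in Sham (adjusted p = 0.193). It passed with the replicate block (0.0296) and with both libraries numbered 3 left out (0.034).

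The 5 tested miRNAs whose log2 CPM tracked the family mean most closely over the 6 libraries were miR-411-5p (Pearson r = 0.99), miR-195a-5p (0.98), miR-218-5p (0.98), miR-181c-3p (0.98) and miR-300-3p (0.98). These r values describe 6 libraries that share depth and group, and carry no test. The closest, miR-411-5p, had 184, 189 and 153 CPM in TAC 1, 2 and 3, against 416, 462 and 298 CPM in Sham 1, 2 and 3. It has, like the family, TAC 3 lowest within TAC and Sham 3 lowest within Sham. Its log2 fold change was -1.16 (edgeR adjusted p = 0.0171) and that of miR-218-5p was -0.86 (adjusted p = 0.0411). Both calls were lost on leaving out any of Sham 1, Sham 2, TAC 1 and TAC 2 (adjusted p between 0.062 and 0.141). The call of miR-218-5p was also lost without TAC 3 (0.0866) and without a filter on low counts (0.0553). The other 3, miR-195a-5p, miR-181c-3p and miR-300-3p, did not pass, with adjusted p-values of 0.117, 0.0553 and 0.0502. With the replicate block miR-195a-5p (0.0324) and miR-300-3p (0.0174) passed, as they did with both libraries numbered 3 left out (0.0316 and 0.0153). With library sizes only all 3 passed (0.0329, 0.0264 and 0.0184), and miR-300-3p also passed with DESeq2 (0.0374), limma-voom (0.0475) and without Sham 3 (0.0347).

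**Figure D5:**
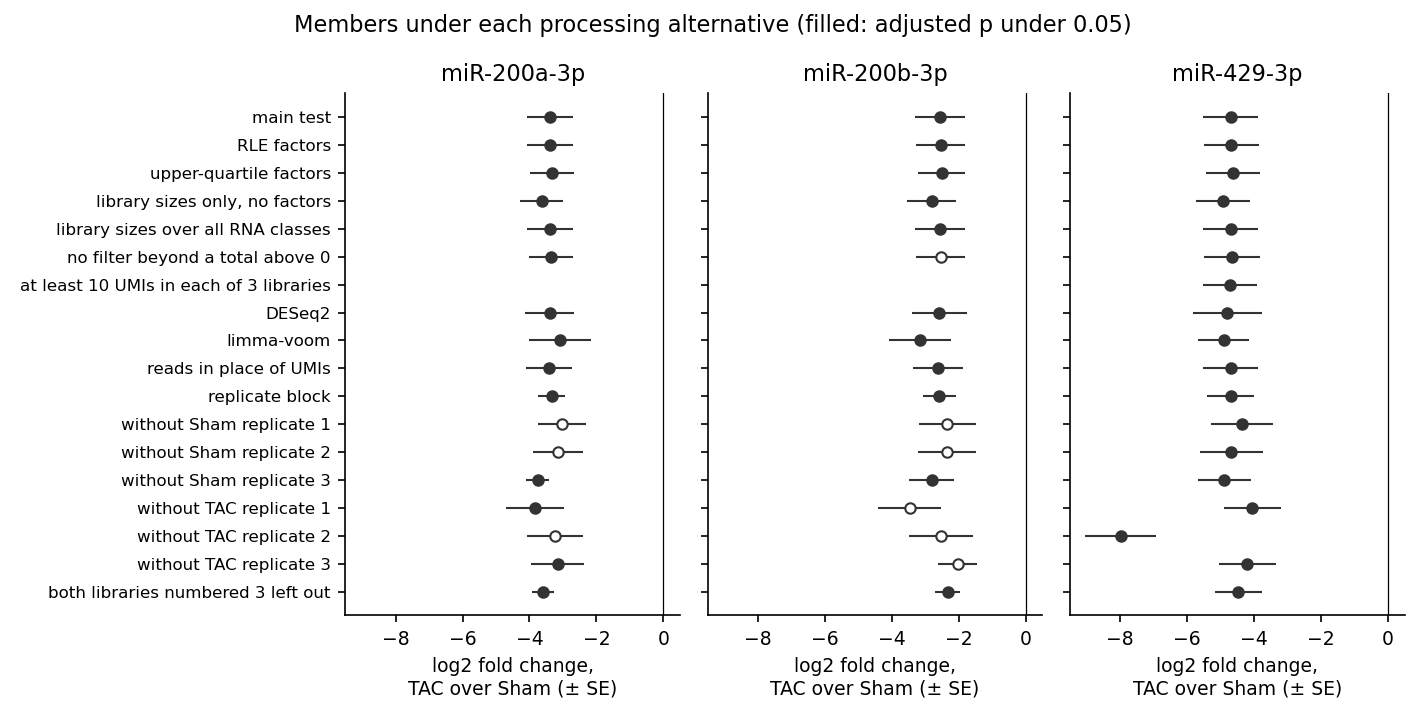
Log2 fold change of TAC over Sham (horizontal axis, bars are the SE) for each member under the main test and each alternative (rows), filled where the adjusted p was under 0.05. All values lie below 0, miR-429-3p is filled in every row, and miR-200b-3p is open in 6 rows.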

How the data were processed

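Small RNA of 3 TAC and 3 Sham libraries was prepared with the QIAseq miRNA kit, per the labels' protocols, which tags molecules with UMIs. The deposited tables hold raw counts of UMIs and of reads per feature, per the file headers. Per the submitters' processing notes, the build is GRCm38. How reads were aligned and counted is not given in the sources used here. Columns were matched through sample descriptions, and 0 columns were left without a sample. UMI counts of all listed miRNAs were fitted in edgeR 4.0.16 (R 4.3.3) with TMM factors, filterByExpr (minimum count 10, minimum total 15) and a quasi-likelihood F test, two-sided, for TAC over Sham, adjusted by Benjamini-Hochberg over 322 miRNAs, and the fit was tested on simulated data. The simulated counts had the same dispersion for every miRNA, so they do not show how the test behaves at the spread of these libraries. SEs come from the fold change and F. Likeness used log2 CPM with a prior count of 2. Alternatives included DESeq2 1.42.0 and limma 3.58.1 (voom). mRNA symbols came from GENCODE M21 (97 of 98 transcripts matched).

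Members, lists, the naming rule (all family rows, up to 4 values per list, the 5 most alike miRNAs, marker mRNAs) and alternatives were chosen with earlier results of these data known. The list of epithelial and kidney miRNAs was given more than 4 values, outside that rule. Values given for miRNAs that did not pass were chosen after they were seen. Libraries of 1 group differed beyond sampling noise. Replicate numbers were read as pairing libraries, since deviations from group means correlated across miRNAs between same-numbered libraries (r = 0.33, 0.31 and 0.59 for numbers 1, 2 and 3). The pairing is uncertain, since TAC 1 correlated more with Sham 2 (0.39) than with Sham 1. Likewise TAC 2 correlated more with Sham 1 (0.34) than with Sham 2. Only the libraries numbered 3 were most alike by number, and deviations within a group are not independent. The main test used no pairing.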

Additional observations from a re-analysis of the deposited data

How the results depend on the processing

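All values of the 3 members stayed below 0 in every alternative that gave one. Library sizes over all RNA classes, with TMM factors computed anew, nearly repeat the main fit by construction. That alternative is counted below but adds no support. For miR-200a-3p, 13 of 16 alternatives passed the threshold, with leave-one-out log2 fold changes from -3.83 to -3.03. For miR-200b-3p 10 of 16 passed, with leave-one-out values from -3.47 to -2.02, and without a filter on low counts the value was -2.54 (adjusted p = 0.0504). Requiring 10 UMIs in each of 3 libraries removes both, since Sham 3 held 9 and 7 UMIs, so that alternative gives no value. The number of miRNAs past the threshold, 71, was 111 with the replicate block, 129 with both libraries numbered 3 left out, and from 17 to 73 when 1 library was left out. The replicate block changed no call of a member. Scaling by library sizes only shifted the median log2 fold change of all miRNAs from 0.04 to -0.24 and gave 10 higher and 68 lower calls, against 20 and 51. The TAC over Sham ratio of the family sum was 0.0947 and from 0.0798 to 0.0826 on the other scales. Leaving out each library in turn, added after seeing the data, gave 0.0702 to 0.127. The cause of the lost calls was not tested. Totals of 16, 13 and 3 UMIs over TAC for miR-200a-3p, miR-200b-3p and miR-429-3p limit what can be seen of single members.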

Other observations

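Of 98 listed mRNA transcripts, 4 had 0 UMIs in every TAC library, and 3 of these belong to the kidney list (Umod, Slc34a1 and Cubn). The other was Abca13, a lipid transporter gene, with 0 UMIs in each TAC library and 15, 7 and 4 UMIs in Sham 1, 2 and 3. In the opposite direction 1 transcript, Alb, had 0 UMIs in every Sham library. These transcripts were picked after their values were seen, and no test was made on them.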
